A study of Drosophila melanogaster with 216 samples.

Results

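The Npc2 genes of Drosophila melanogaster encode a family of small secreted proteins that bind sterols, and all 8 members (Npc2a, Npc2b, Npc2c, Npc2d, Npc2e, Npc2f, Npc2g and Npc2h) are described here. A member was taken from the array through the platform annotation: 1 probe set was paired with each of the 8 genes alone, so the family stands for 8 of the 18769 probe sets tested and for 8 of the 11982 genes that had a probe set of their own. No member was dropped. The family was picked with the fall of Npc2e on 2.5SY adult food at middle and old age already known, and the adult diet values at those ages are therefore given as a description with no test.

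RNA came from whole virgin flies of both sexes of 1 outbred stock, with 5 flies per array and 4 arrays in each of 54 groups, which made 216 arrays. Each group combined 1 of 3 larval diets (0.25SY, 1SY or 2.5SY), 1 of the same 3 adult diets, 1 sex and 1 of 3 ages, and no group carried a mutation, transgene or drug. A litre of the 1SY food contained yeast at 70 g and sugar at 100 g by the sample labels, although the sources differ on which of these amounts was the yeast, and the 0.25SY and 2.5SY foods had 0.25 and 2.5 times these amounts. Flies were sampled at 1 day after eclosion, at middle age (10% of the cohort dead) and at old age (90% dead), so the later ages were matched on cohort mortality and differed in days between diets and sexes. The 4 arrays of a group were pools of flies of 1 cohort, so every p-value measures the spread between such pools. Fewer cells of a type and less RNA per cell cannot be told apart in RNA of whole flies.

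In animal cells, NPC2 takes up cholesterol released inside the lysosome and hands it to the membrane protein NPC1, which moves it out, and loss of either protein fills cells with trapped sterol. Flies cannot make sterols and take them from food, mainly from yeast, so uptake in the midgut and handling inside cells supply both membranes and the steroid hormone ecdysone. Mammals have 1 NPC2 gene, whereas the fly has a family: Npc2a and Npc2b have been linked in Drosophila to sterol balance and ecdysteroid supply, and Npc2a, Npc2e and Npc2h have been reported to bind components of bacterial cell walls.

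The members differ in genomic setting. Npc2e (CG31410), Npc2d (CG12813) and Npc2c (CG3934) lie side by side on chromosome arm 3R between Fancl and CG33630, and Npc2g (CG11314) and Npc2h (CG11315) are neighbours on 3R between CG15543 and zfh1. Npc2b (CG3153) lies between foxo and CCHa1 and Npc2f (CG6164) between Sec10 and Kal1, both on 3R, while Npc2a (CG7291) is alone on 2L between Got2 and Obp22a. The probe sets of Npc2b and Npc2h carry platform suffixes for probes shared by more than 1 transcript, those of the other members do not.

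Values are log2 intensities, so a difference of 1 is a doubling, and 1 probe set cannot be set against another. Over all 216 arrays the mean of Npc2g was 12.84, brighter than 98.3% of the probe sets, and that of Npc2a was 11.90, brighter than 96.1%. Npc2c was dim, with a mean of 5.32 (brighter than 28.7%), close to background, where differences are compressed. The means of the other 5 lay between 9.83 (Npc2e) and 11.48 (Npc2b).

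Some arrays went against their labels. Of the old males, replicate 1 of the group raised on 0.25SY and kept on 2.5SY had a female profile, with a mean of 13.17 over the ovary and yolk markers and 5.21 over the testis markers. Replicate 3 of the group raised on 0.25SY and kept on 1SY correlated best with a group of 1-day-old males (r = 0.997, against 0.975 with its own group), and replicate 1 of the group raised on 1SY and kept on 0.25SY had raised ovary markers (9.33). These are called the 3 old male arrays. Some results on old males are also given without them, and all other values of old males include them. Among the 144 arrays of the later ages, 126 correlated best with the other arrays of their own adult diet, as deviations from the mean of their sex and age. Of the rest, 4 had r under -0.2 with their own diet and above 0 with another. These were the last of the old male arrays and 3 middle-aged arrays. The middle-aged males were replicate 4 of those raised on 0.25SY and kept on 1SY and replicate 1 of those on 2.5SY at both stages. The middle-aged female array was replicate 2 of females on 0.25SY at both stages. On average the markers of the sexes followed the labels. At each age all 13 ovary and yolk genes were higher in females than in males. All 15 testis and 12 accessory gland genes were lower. Single arrays still varied: outside the 3 old male arrays, the ovary and yolk mean reached 8.91 in old males (median of all 36, 6.33). The accessory gland mean reached 6.83 in middle-aged females (median 4.99). The part of these organs in the sex differences below was not tested.

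**Figure D1:**
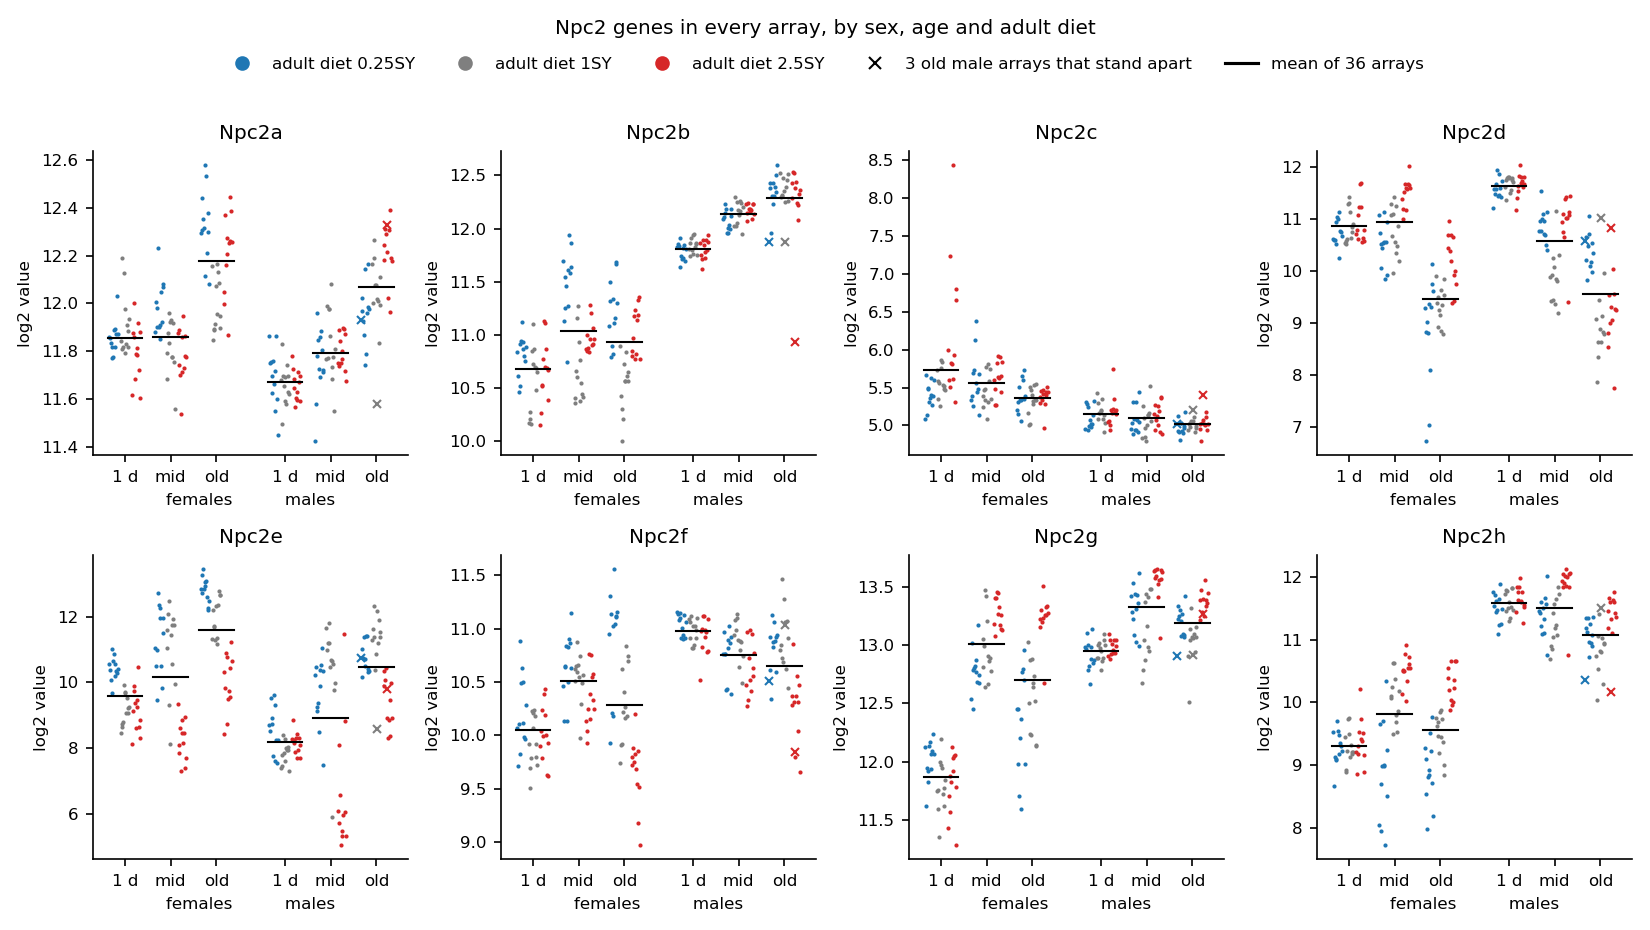
Log2 values of the 8 Npc2 genes in every array (1 point per array, 36 per sex and age, coloured by adult diet; lines are means of 36 and crosses the 3 old male arrays), with females left of males in each panel. Npc2b and Npc2h sat lower in females, Npc2e spread widest at middle age and Npc2d dropped in old flies of both sexes.

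The first question was how the family differed between old and middle-aged flies of each sex. Averaged over diets, Npc2e rose and Npc2d fell in old flies of both sexes, Npc2a rose modestly in both, and Npc2g and Npc2h fell modestly in both. Between 72 arrays per sex, 7 of the 8 members passed in females (2 higher, 5 lower) and 6 of 8 in males (3 higher, 3 lower). Age moved much of the array, with 45.3% of all probe sets called in females (24.2% higher, 21.1% lower) and 41.2% in males (22.7% higher, 18.5% lower) at an adjusted p under 0.05 (limma, Benjamini-Hochberg over all probe sets, as for every adjusted p below). The median difference of the members was -0.21 in females and -0.09 in males, against 0.00 and -0.02 over all probe sets.

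Npc2e, one of the members reported in flies to bind bacterial cell wall components, had a lowest, median and highest value of 8.44, 11.95 and 13.45 in 36 arrays of old females, against 7.31, 10.50 and 12.71 in middle-aged females. In old males these values were 8.33, 10.46 and 12.32, against 5.06, 9.84 and 11.81 in middle-aged males. The arrays of the ages overlapped in both sexes, with the lowest values of all in middle-aged males. The rise was 1.41 in females (SE 0.171, adjusted p = 5.33e-10, 2.67-fold, rank 65 of 18769 by size) and 1.55 in males (SE 0.261, adjusted p = 2.00e-06, 2.92-fold, rank 34), and without the 3 old male arrays it was 1.58 in males. The rises did not differ detectably between the sexes, with a female minus male difference of -0.13 and a 95% interval of -0.75 to 0.49.

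Npc2d, its neighbour on 3R, moved the other way. It had a lowest, median and highest value of 6.72, 9.47 and 10.95 in old females, against 9.84, 11.04 and 12.01 in middle-aged females. Old males had 7.74, 9.49 and 11.06, against 9.19, 10.76 and 11.54 in middle-aged males. Old flies reached below the lowest middle-aged array of their sex, while the upper parts of the ranges overlapped. It fell by 1.47 in females (SE 0.121, adjusted p = 1.33e-15, 2.78-fold, rank 57) and by 1.01 in males (SE 0.128, adjusted p = 2.99e-09, 2.01-fold, rank 113), and by 1.11 in males without the 3 old male arrays. The fall was steeper in females by 0.46 (SE 0.179, adjusted p = 0.0421), but this difference between the sexes did not pass without the 3 old male arrays (-0.36, adjusted p = 0.0930) or with replicate 1, 2 or 3 of every group left out (-0.35 to -0.45, adjusted p from 0.0959 to 0.267).

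Npc2a, the member closest to mammalian NPC2, averaged 12.18 ± 0.20 in old females, against 11.86 ± 0.14 in middle-aged females, and 12.07 ± 0.18 in old males, against 11.79 ± 0.13 in middle-aged males (SD, n = 36 each). The rises of 0.32 (SE 0.0312, adjusted p = 8.36e-13) and 0.27 (SE 0.0321, adjusted p = 2.92e-10) differed by 0.04 between the sexes (95% interval -0.04 to 0.13, adjusted p = 0.513). Npc2g fell by 0.31 in females (adjusted p = 4.50e-05) and by 0.14 in males (adjusted p = 0.00469). Npc2h fell by 0.43 in males (SE 0.0807, adjusted p = 1.54e-05) and by 0.26 in females (SE 0.108, adjusted p = 0.0451), where the call was lost without replicate 2, 3 or 4 of every group (-0.16 to -0.29, adjusted p from 0.0988 to 0.215) and without the 3 middle-aged arrays (-0.24, adjusted p = 0.0657).

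Npc2b, a gene linked to sterol balance, differed between the sexes in its change with age. In old males it rose by 0.16 (SE 0.0497, adjusted p = 0.00879), by 0.22 without the 3 old male arrays (adjusted p = 1.22e-09), and by 0.12 to 0.16 with the call lost when replicate 2, 3 or 4 was left out. In old females the difference was -0.11 (adjusted p = 0.108), which passed without replicate 2 (-0.15, adjusted p = 0.0499) and without the 3 middle-aged arrays (-0.13, adjusted p = 0.0427). The difference between the sexes was -0.27 (SE 0.0758, adjusted p = 0.00412). With Npc2d it made 2 of 8 members whose change with age was lower in females than in males and 0 with a higher one, against 25.8% of all probe sets (16.4% lower, 9.43% higher). Npc2f fell by 0.22 in females (adjusted p = 0.0105; -0.17 and adjusted p = 0.148 without replicate 1) with -0.11 in males (adjusted p = 0.139). This fall is an average over adult diets that differed in direction: on 0.25SY Npc2f averaged 10.89 in old females, against 10.64 in middle-aged females, on 1SY 10.31 against 10.54, and on 2.5SY 9.66 against 10.34. The dim Npc2c fell by 0.20 in females (adjusted p = 0.000276; adjusted p = 0.0522 in 1 fit of all 3 ages) with -0.07 in males (adjusted p = 0.0998; -0.09 and adjusted p = 0.0394 without the 3 old male arrays). No member separated all old from all middle-aged arrays of a sex, which only 0.00533% of all probe sets did in females and 0% in males.

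Markers of the gut moved with age as well. All 14 measured midgut peptidase genes fell in old females and 13 of 14 in old males, with a median difference of -0.83 and -0.52, and the mean over the list ranged from 10.16 to 12.21 in old females, against 11.25 to 12.63 in middle-aged females. It ranged from 9.98 to 12.12 in old males (9.98 to 11.95 without the 3 old male arrays), against 10.99 to 12.13 in middle-aged males. All 8 muscle genes fell in old females, while 3 rose and 2 fell in old males, and 3 of the 4 measured fat body genes rose in old females. Males went the other way in the fat body list. The median of its mean was 9.73 in old and 8.85 in middle-aged females, but 8.82 in old and 9.33 in middle-aged males. The part of these shifts in the Npc2 values was not tested.

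The second question was how the family differed between middle-aged and 1-day-old flies, that is over the maturation of the adult. Averaged over diets, the calls in females were rises only: 5 of the 8 members were higher at middle age and 0 lower, against 60.7% of all probe sets called (25.7% higher, 35% lower). In males 4 rose and 2 fell, against 74.1% of all probe sets called (38.6% higher, 35.5% lower). The change differed between the sexes for 5 members, 4 with a higher value in females and 1 with a lower one, against 56.5% of all probe sets (25.6% higher, 30.9% lower).

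Npc2g rose most in females. Its lowest, median and highest values were 12.46, 13.01 and 13.47 in middle-aged females, against 11.28, 11.92 and 12.23 in 1-day-old females, so the 36 arrays of each age were fully apart (1.49% of all probe sets separated them). The rise was 1.14 (SE 0.0444, adjusted p = 2.38e-31, 2.21-fold). In males Npc2g rose by 0.38 (SE 0.0351, adjusted p = 4.06e-15), and the rise was larger in females by 0.76 (SE 0.0569, adjusted p = 6.64e-24).

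Npc2h, the neighbour of Npc2g, had a lowest, median and highest value of 7.72, 10.08 and 10.92 in middle-aged females, against 8.67, 9.27 and 10.22 in 1-day-old females. The middle-aged females included both the lowest and the highest values, and those at the low end had been kept on 0.25SY. On 0.25SY Npc2h averaged 8.90 in middle-aged females, against 9.27 in 1-day-old females, on 1SY 10.05 against 9.29, and on 2.5SY 10.51 against 9.36. Over all adult diets it rose by 0.51 in females (SE 0.0964, adjusted p = 6.26e-06) with -0.08 in males (adjusted p = 0.237), and the difference between the sexes was 0.59 (SE 0.115, adjusted p = 3.44e-06). Npc2f rose by 0.45 in females (SE 0.0494, adjusted p = 4.91e-12) and fell by 0.23 in males (SE 0.0404, adjusted p = 1.32e-06), a difference between the sexes of 0.68 (SE 0.0643, adjusted p = 1.03e-17).

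Npc2d fell with maturation in males alone among the tests run. It averaged 10.57 ± 0.67 in middle-aged males, against 11.64 ± 0.19 in 1-day-old males, and 10.93 ± 0.57 in middle-aged females, against 10.86 ± 0.34 in 1-day-old females (SD, n = 36 each). The fall was 1.07 in males (SE 0.0808, adjusted p = 1.03e-18, 2.11-fold), the value in females was 0.07 (adjusted p = 0.386; 0.19 and adjusted p = 0.0199 without replicate 4), and the sexes differed by 1.15 (SE 0.109, adjusted p = 1.41e-17).

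Npc2b rose in both sexes, by 0.36 in females (SE 0.0462, adjusted p = 6.44e-10) and by 0.32 in males (SE 0.0206, adjusted p = 5.56e-22). Averaged over adult diets, Npc2e rose by 0.59 in females (SE 0.165, adjusted p = 0.00160) and by 0.74 in males (SE 0.244, adjusted p = 0.00519), where the call was lost without replicate 1 (0.48, adjusted p = 0.114) or replicate 2 (0.57, adjusted p = 0.0910). On 2.5SY, however, Npc2e was lower at middle age, with medians of 8.32 in middle-aged females, against 9.19 in 1-day-old females, and 6.02 in middle-aged males, against 8.21 in 1-day-old males. On 0.25SY the medians were 11.28 in middle-aged females, against 10.40 in 1-day-old females, and 10.06 in middle-aged males, against 8.62 in 1-day-old males. On 1SY they were 11.51 and 10.67 in middle-aged females and males, against 9.15 and 7.90 at 1 day, and whether this change with age differed between adult diets was not tested. Npc2a rose by 0.12 in males (adjusted p = 4.05e-05) with 0.01 in females (adjusted p = 0.883), a difference between the sexes of -0.12 (adjusted p = 0.00571; -0.10 and adjusted p = 0.0548 without replicate 4). Npc2c did not pass in either sex, with -0.17 in females (adjusted p = 0.140) and -0.06 in males (adjusted p = 0.142).

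Other tissue markers differed between these ages as well. All 13 ovary and yolk genes (median -2.28) fell in middle-aged females, all 8 muscle genes fell in both sexes (median -1.36 in females and -1.35 in males), and 13 of 15 testis genes fell in males. Of the 14 midgut genes, middle-aged females had 6 higher and 4 lower and middle-aged males 5 higher and 8 lower. Their part in the Npc2 values was not tested.

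**Figure D2:**
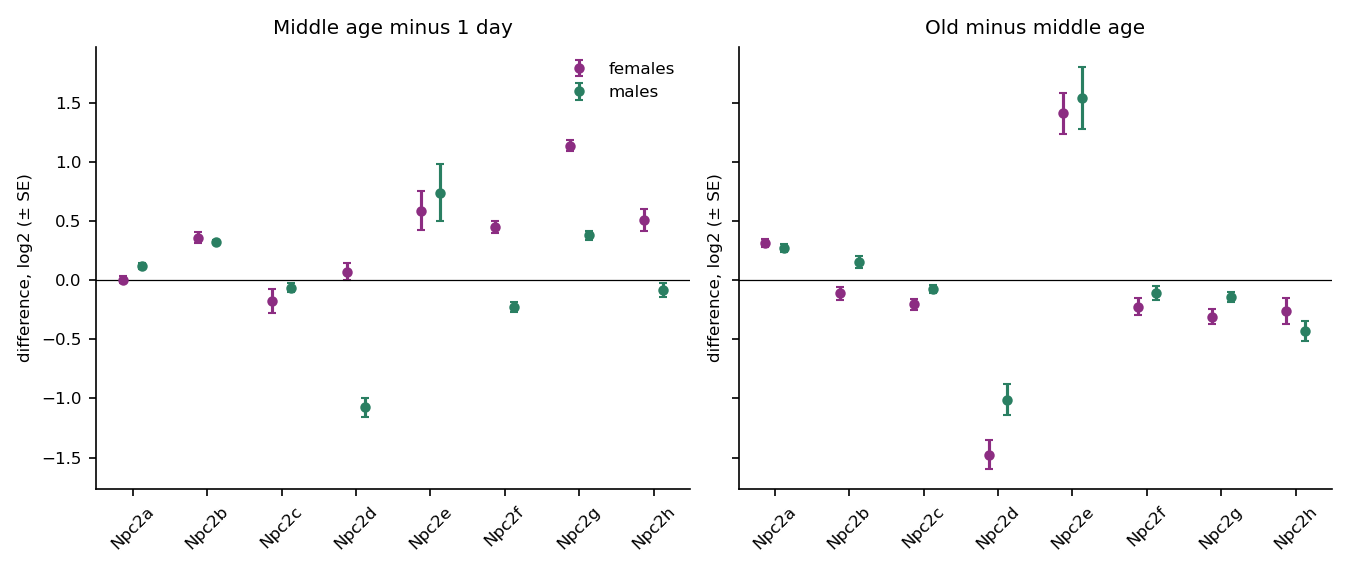
Differences in log2 value between middle-aged and 1-day-old flies and between old and middle-aged flies for each Npc2 gene, with bars of 1 standard error and females left of males. Npc2d at -1.47 and -1.01 and Npc2e at 1.41 and 1.55 stand out between old and middle age, and Npc2g at 1.14 in females between middle age and 1 day.

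The third comparison set females against males at each age. Nearly every probe set differed (95.2% at 1 day, 94.5% at middle age and 94.1% at old age), and 8, 8 and 7 of the 8 members did. Of these, 3, 4 and 3 were higher in females, against 64.7%, 65.9% and 64.2% of all probe sets, and 5, 4 and 4 were lower, against 30.5%, 28.6% and 29.9%. The median array value was 6.64 to 6.96 in females and 6.76 to 7.42 in males, and the median difference over all probe sets was 0.27, 0.26 and 0.26 at the 3 ages. The methods speak of normalizing the sexes separately, and whether the deposited values were so made is not given in the sources used here. Each direction was therefore also checked after centring every array on its median. Centring removes only a shift of the whole array, so sizes of differences between the sexes stay uncertain.

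Npc2h was the most male-biased member. The lowest, median and highest values of Npc2h at 1 day were 8.67, 9.27 and 10.22 in females, against 11.09, 11.60 and 11.99 in males, with no overlap. The differences were -2.28 (SE 0.0515, 4.86-fold) at 1 day, -1.69 (SE 0.101, 3.22-fold) at middle age and -1.52 (SE 0.0891, 2.87-fold) at old age, and -1.82, -1.21 and -0.97 with centred arrays. Npc2b followed, with differences of -1.14, -1.10 and -1.36 at the 3 ages (2.20, 2.14 and 2.57-fold) and -0.67, -0.62 and -0.81 with centred arrays.

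At 1 day Npc2b had a lowest, median and highest value of 10.15, 10.70 and 11.13 in females, against 11.62, 11.82 and 11.95 in males. Females and males did not overlap for Npc2b, Npc2g and Npc2h at 1 day (40% of all probe sets did not) and for Npc2b at middle age (27%). At old age the ranges of Npc2b met only through the old male array with a female profile (10.93): without the 3 old male arrays they were apart, at 10.00 to 11.69 in females and 11.95 to 12.60 in males (34.6% of all probe sets were apart without these arrays and 0.474% with them).

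Npc2e was the member most biased towards females, with differences of 1.39 at 1 day (SE 0.106, adjusted p = 7.75e-19, 2.63-fold), 1.24 at middle age (SE 0.275, adjusted p = 3.83e-05, 2.36-fold) and 1.11 at old age (SE 0.143, adjusted p = 2.40e-10, 2.16-fold), and the sign was the same with centred arrays. The 1-day values ran from 8.12 to 11.01 in females (median 9.60) and from 7.32 to 9.63 in males (median 8.13), overlapping over a part of the range. The dim Npc2c (0.58, 0.47 and 0.34) and Npc2a (0.19, 0.07 and 0.11) were also higher in females, with and without centring; the 0.07 of Npc2a at middle age (adjusted p = 0.0285) was not called without replicate 1, 2 or 3 (adjusted p from 0.0596 to 0.0828).

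The direction of the other 3 members depended on age or on scaling. Npc2g was lower in females by 1.08, 0.32 and 0.49 at the 3 ages, but with centred arrays the values were -0.62 at 1 day and 0.16 and 0.06 later. Npc2f was lower in females by 0.93, 0.25 and 0.36, whereas centring gave -0.46, 0.23 and 0.19. Npc2d differed by -0.78 at 1 day (adjusted p = 9.36e-29) and by 0.36 at middle age (adjusted p = 0.000784), and its difference of -0.10 at old age (adjusted p = 0.492, 95% interval -0.39 to 0.18) became 0.45 (adjusted p = 0.00395) with centring and 0.0018 (adjusted p = 0.990) without the 3 old male arrays.

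The adult diet at middle and old age is the contrast that led to the choice of the family. Its F-test passed for 56.2% of all probe sets in females and 13.7% in males. Because the family was chosen on these values, no test outcome is given for its members. The ranks and the shares of probe sets without overlap given below are descriptions too. Those of Npc2e were fixed in part by the choice, so nothing is concluded from them. The differences over both ages are marginal means with their standard errors and no p.

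Npc2e was lower on 2.5SY. In middle-aged females its lowest, median and highest values were 9.46, 11.28 and 12.71 on 0.25SY, 8.13, 11.51 and 12.47 on 1SY and 7.31, 8.32 and 9.35 on 2.5SY (n = 12 each). In old females these were 12.20, 12.84 and 13.45 on 0.25SY, 11.17, 11.95 and 12.76 on 1SY and 8.44, 10.06 and 11.24 on 2.5SY. Females on 2.5SY lay wholly below those on 0.25SY at middle age (1.56% of all probe sets were apart) and at old age (1.07%). Over both ages the difference of 2.5SY from 0.25SY was -2.89 (SE 0.210, 7.41-fold, rank 7), that of 2.5SY from 1SY was -2.34 (5.05-fold, rank 16), and that of 1SY from 0.25SY was -0.55.

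In males the pattern was uneven. Middle-aged males had a lowest, median and highest value of Npc2e of 7.49, 10.06 and 11.06 on 0.25SY, 5.93, 10.67 and 11.81 on 1SY and 5.06, 6.02 and 11.46 on 2.5SY. On 2.5SY the 4 arrays raised on 0.25SY read 5.06, 5.50, 5.33 and 5.98, those raised on 1SY read 6.11, 8.10, 5.72 and 6.60, and those raised on 2.5SY read 11.46, 8.84, 6.06 and 5.35. The array at 11.46 and the 1SY array at 5.93 are the middle-aged males set apart above by their adult diet. Without the 3 middle-aged arrays the difference of 2.5SY from 1SY over both ages was -3.15. With all arrays it was -2.75 (SE 0.319, 6.73-fold, rank 1 of 18769). Those arrays were picked for going against their adult diet, so leaving them out can by itself widen a diet difference. The difference of 2.5SY from 0.25SY was -2.18 (4.53-fold, rank 4) over both ages, -3.04 at middle age and -1.32 at old age.

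At middle age Npc2e varied more between arrays of 1 group than the other 7 members did, with a pooled within-group SD of 0.894 in females and 1.45 in males. Without the 3 middle-aged arrays it was 0.911 in females and 0.957 in males, still above the other members, whose highest were 0.532 in females (Npc2h) and 0.312 in males (Npc2d). At 1 day and at old age it was 0.435 to 0.669, and Npc2b in 1-day-old males had 0.0701. Adult diet accounted for 56.8% of the variance of Npc2e among females of the later ages and for 39.9% among males.

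Npc2d was higher on 2.5SY in females. Its lowest, median and highest values in old females were 6.72, 9.15 and 10.14 on 0.25SY, 8.79, 9.36 and 9.91 on 1SY and 9.38, 10.28 and 10.95 on 2.5SY. The difference of 2.5SY from 0.25SY was 1.18 over both ages (SE 0.148, 2.27-fold, rank 127), with 0.98 at middle age and 1.38 at old age. In males the level was lowest on 1SY at middle age (means 10.88, 9.89 and 10.95 on 0.25SY, 1SY and 2.5SY) and highest on 0.25SY at old age (10.39, 9.05 and 9.24, or 10.37, 8.87 and 9.10 without the 3 old male arrays). The difference of 1SY from 0.25SY was -1.16 over both ages (SE 0.157, 2.24-fold, rank 24), while that of 2.5SY from 0.25SY was 0.07 at middle age and -1.14 at old age.

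Npc2h and Npc2g were higher with richer adult food in females. Npc2h in old females had a lowest, median and highest value of 7.97, 8.87 and 9.77 on 0.25SY, 8.84, 9.54 and 9.87 on 1SY and 9.88, 10.30 and 10.66 on 2.5SY, so that 2.5SY lay wholly above both others (1.07% of all probe sets were apart from 0.25SY and 0.927% from 1SY). The difference of 2.5SY from 0.25SY was 1.5 over both ages (SE 0.133, 2.83-fold, rank 66). For Npc2g it was 0.70 (SE 0.0766, 1.62-fold), with means of 12.78, 12.98 and 13.28 at middle age and 12.33, 12.55 and 13.23 at old age on 0.25SY, 1SY and 2.5SY. In males both were lowest on 1SY: Npc2h averaged 11.05, 10.84 and 11.36 and Npc2g 13.19, 13.02 and 13.37 in old males on 0.25SY, 1SY and 2.5SY, and the differences of 2.5SY from 1SY over both ages were 0.56 and 0.37.

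Npc2f was lower with richer food in old females, with means of 10.89 ± 0.50, 10.31 ± 0.36 and 9.66 ± 0.33 on 0.25SY, 1SY and 2.5SY (SD, n = 12 each), and lowest on 2.5SY in old males (10.80, 10.91 and 10.24). Npc2b was lowest on 1SY in females at both ages (11.48, 10.66 and 10.98 at middle age and 11.22, 10.53 and 11.03 at old age), and its difference of 1SY from 0.25SY was -0.75 (1.69-fold). Adult diet accounted for 56.1% of the variance of Npc2b among females and for 0.711% among males. The male share includes the old male array with a female profile, where Npc2b read 10.93. The pooled within-group SD of Npc2b was 0.286 in old males, against 0.0942 in middle-aged males. No share was computed without that array, so the shares of the sexes are not compared. Npc2a differed by -0.16 (2.5SY from 0.25SY) and -0.25 (1SY from 0.25SY) in females and by 0.16 (2.5SY from 0.25SY) in males.

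The ovary and yolk markers also differed between adult diets in females: on 0.25SY, 1SY and 2.5SY the median of the list mean was 10.06, 13.57 and 12.50 in middle-aged females and 12.26, 13.43 and 10.69 in old females. It was thus highest on 1SY at both ages, while 0.25SY and 2.5SY changed places. The midgut list had medians of 12.35, 12.01 and 11.93 in middle-aged females and 11.33, 11.28 and 11.17 in old females. In males it was 11.78, 11.69 and 11.87 at middle age and 11.72, 10.87 and 10.82 at old age, lower on the richer foods at old age but not at middle age. What part these lists had in the Npc2 levels was not tested.

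**Figure D3:**
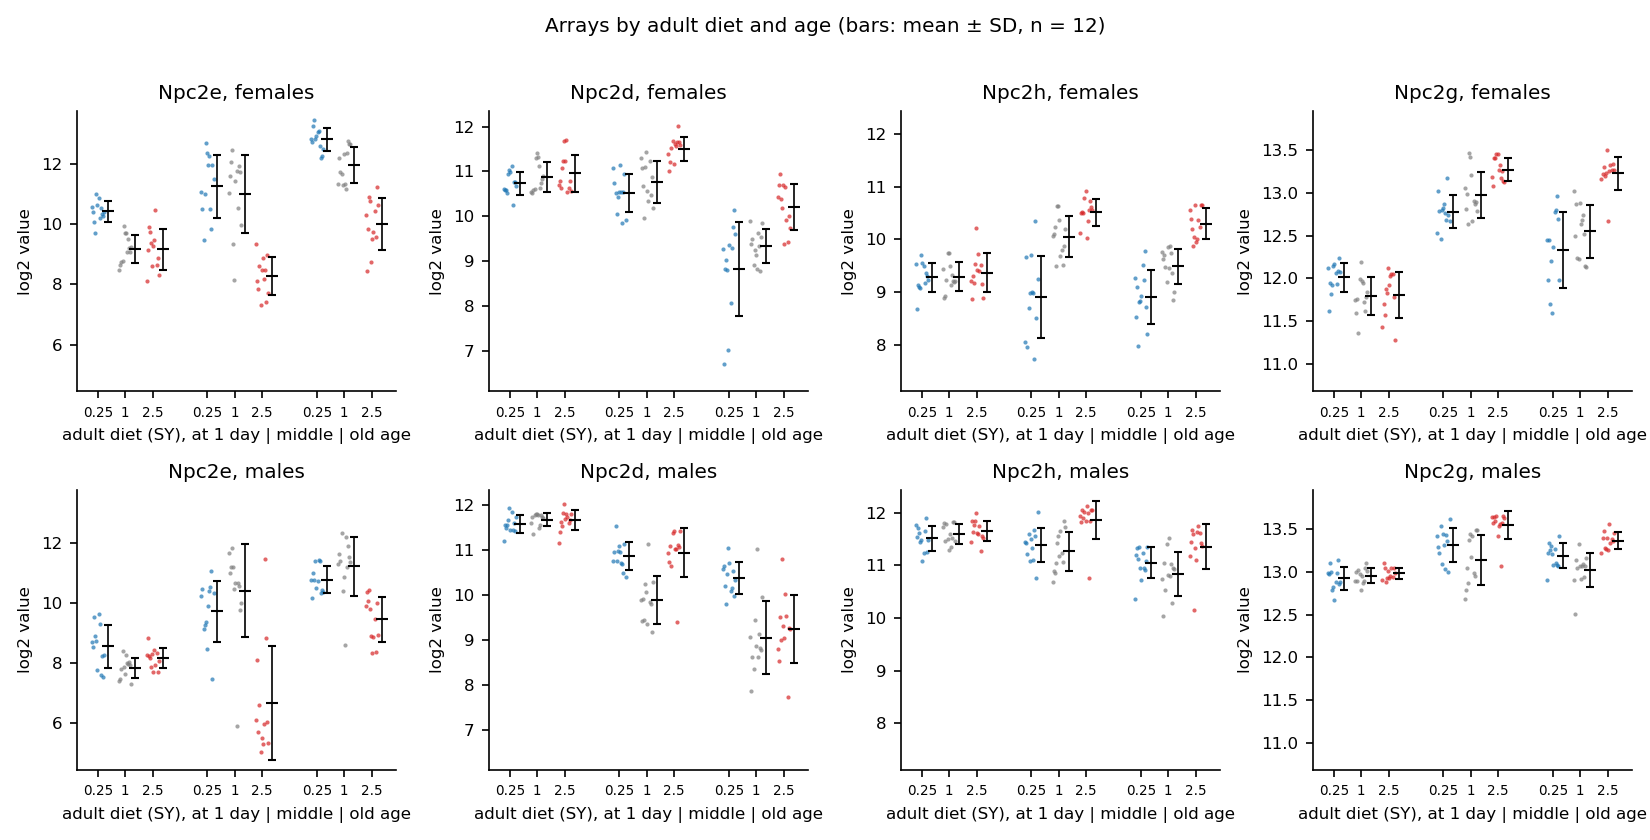
Log2 values of Npc2e, Npc2d, Npc2h and Npc2g in each array by adult diet within each age, with females above males and bars of mean ± SD (n = 12). Npc2e drops on 2.5SY at middle and old age in both sexes while Npc2h and Npc2g rise with adult diet in females, and 1 male array at 11.46 sits far above the others on 2.5SY at middle age.

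Whether the difference between adult diets changed from middle to old age was tested, since that interaction was not used to choose the genes. In females 2 of 8 members passed the F-test (27% of all probe sets did): Npc2f (adjusted p = 0.000453) and Npc2a (adjusted p = 0.0323). For Npc2f the difference of 2.5SY from 0.25SY was lower by 0.93 at old age than at middle age (SE 0.180, adjusted p = 0.000105; 17.6% of all probe sets were called lower in this contrast and 13.3% higher). The largest pairwise change of Npc2a was 0.25 (2.5SY from 1SY, SE 0.0765, adjusted p = 0.0924), and its F-test was not passed with any 1 of the 4 replicate numbers left out (adjusted p from 0.0702 to 0.149). The F-test of Npc2g gave an adjusted p of 0.0564 (0.0487 with the replicate number as a block), while its difference of 2.5SY from 0.25SY was larger by 0.41 at old age (adjusted p = 0.0360). In males 0 of 8 passed (0.256% of all probe sets did). There Npc2d had an adjusted p of 0.107, but it passed without the 3 old male arrays (0.0199) and without the 3 middle-aged arrays (0.0298), where Npc2e passed too (0.00263, against 0.212 with all arrays). The 3 middle-aged arrays were picked by their adult diet profile, so nothing is concluded from the passes without them.

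The fourth comparison asked whether the food that newly eclosed adults had met for 1 day already moved the family. These arrays were not used to choose the genes. In 1-day-old females 4 of the 8 members passed the F-test (Npc2b, Npc2c, Npc2e and Npc2f), against 6.33% of all probe sets, and in males Npc2e alone did, against 2.14%. Against 0.25SY, 3 members were lower in females on 1SY (4.97% of all probe sets were), 1 was lower and 2 were higher on 2.5SY (3.73% and 0.89%), and 1 was lower in males on 1SY (0.261%).

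Npc2e in 1-day-old females had a lowest, median and highest value of 9.69, 10.40 and 11.01 on 0.25SY, 8.46, 9.15 and 9.92 on 1SY and 8.12, 9.19 and 10.47 on 2.5SY (n = 12 each). Flies on 1SY and 2.5SY overlapped fully and lay mostly below those on 0.25SY. The fall was 1.26 on 2.5SY against 0.25SY (SE 0.190, adjusted p = 3.85e-05, 2.40-fold, rank 19) and 1.25 on 1SY against 0.25SY (SE 0.190, adjusted p = 9.19e-05, 2.37-fold, rank 9). Between 2.5SY and 1SY the difference was -0.02, with a 95% interval of -0.39 to 0.36. Both falls were called in all 11 settings tried, at -1.13 to -1.44.

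In males Npc2e fell by 0.73 on 1SY against 0.25SY (SE 0.166, adjusted p = 0.0386, 1.65-fold, rank 7), but not detectably on 2.5SY (-0.40, adjusted p = 0.220). The males on 0.25SY read 8.74, 7.76, 9.63 and 9.31 when raised on 0.25SY, 8.72, 8.52, 9.54 and 8.92 when raised on 1SY and 7.60, 8.24, 7.56 and 8.26 when raised on 2.5SY. Those raised on 2.5SY were thus the lower ones, within the range of males on 1SY (7.32 to 8.40). The fall in males was lost without replicate 1, 3 or 4 of every group (-0.66 to -0.76, adjusted p from 0.138 to 0.195), and without replicate 2 the difference on 2.5SY passed instead (-0.64, adjusted p = 0.0481).

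The other calls in 1-day-old females were smaller and less stable. Npc2b fell by 0.23 on 1SY against 0.25SY (SE 0.0618, adjusted p = 0.0197) and Npc2f by 0.28 (SE 0.0711, adjusted p = 0.0170). Npc2c rose by 0.82 on 2.5SY against 0.25SY (SE 0.227, adjusted p = 0.0296), which rested on few arrays: the 12 arrays on 2.5SY included values of 8.43, 7.23, 6.80 and 6.65, while the other 8 lay between 5.31 and 5.99. Without replicate 4 the rise was 0.46 (adjusted p = 0.0519). Npc2d was higher by 0.22 on 2.5SY than on 0.25SY (adjusted p = 0.0300), though not by its F-test (0.0578). With any 1 replicate number left out, the F-test called Npc2e alone among the 8 members.

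The fifth comparison was the larval diet in 1-day-old flies. In females 5 members passed the F-test (Npc2b, Npc2d, Npc2f, Npc2g and Npc2h), against 41.2% of all probe sets, and Npc2d alone in males, against 7.99%. All pairwise calls against 0.25SY were lower values: 6 of 8 members fell in females raised on 1SY (19.5% of all probe sets did) and 4 of 8 in those raised on 2.5SY (13.7%). The median difference of the members was -0.46 and -0.23, against 0.02 and 0.01 over all probe sets.

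Npc2d had a lowest, median and highest value of 10.95, 11.23 and 11.69 in 1-day-old females raised on 0.25SY, 10.52, 10.60 and 11.07 in those raised on 1SY and 10.25, 10.70 and 10.90 in those raised on 2.5SY (n = 12 each). The 0.25SY-raised females were the high ones, with overlap through the top of the 1SY range only. The fall was 0.61 for 1SY against 0.25SY (SE 0.0620, adjusted p = 1.64e-09, 1.53-fold) and 0.58 for 2.5SY against 0.25SY (SE 0.0620, adjusted p = 2.37e-07).

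Npc2b averaged 10.92 ± 0.16, 10.39 ± 0.22 and 10.71 ± 0.16 in females raised on 0.25SY, 1SY and 2.5SY (SD, n = 12 each). It was thus lowest after 1SY, with a fall of 0.53 for 1SY against 0.25SY (SE 0.0618, adjusted p = 1.65e-08) and a rise of 0.32 for 2.5SY against 1SY (SE 0.0618, adjusted p = 0.00128), the 1 member of 8 that rose in that contrast (6.76% of all probe sets did). The fall of 0.22 for 2.5SY against 0.25SY (adjusted p = 0.00740) was not called without replicate 2 (-0.15, adjusted p = 0.177) or 4 (-0.19, adjusted p = 0.0613). Npc2f fell by 0.47 (SE 0.0711, adjusted p = 1.45e-06) on 1SY and by 0.43 on 2.5SY (adjusted p = 4.54e-05).

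Npc2g and Npc2h fell by 0.31 (SE 0.0743, adjusted p = 0.000708) and 0.45 (SE 0.101, adjusted p = 0.000400) in females raised on 1SY against 0.25SY. Without replicate 2 neither passed the F-test over the 3 diets (adjusted p = 0.0914 and 0.0648); the fall of Npc2g on 1SY was still called (-0.25, adjusted p = 0.0306), whereas that of Npc2h was not (-0.23, adjusted p = 0.0560). The fall of Npc2h on 2.5SY (-0.32, adjusted p = 0.0146) and that of Npc2e on 1SY (-0.47, adjusted p = 0.0463, F-test 0.133) were each lost with 3 of the 4 replicate numbers left out; without replicate 1 that of Npc2e was -0.27. In males Npc2d fell by 0.26 on 1SY against 0.25SY (SE 0.0640, adjusted p = 0.0105; 3.44% of all probe sets fell), which was lost without replicate 1 (-0.20, adjusted p = 0.167) or 2 (-0.22, adjusted p = 0.120).

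In the same females all 8 muscle genes fell in both 1SY- and 2.5SY-raised flies (median -0.46 and -0.19), as did 11 and 7 of 14 midgut genes (-0.18 and -0.16) and 4 and 3 of 6 Malpighian tubule genes (-0.24 and -0.15). In males raised on 1SY, 9 of 14 midgut genes fell and 1 rose (median -0.23), and 3 of 4 fat body genes rose (median 1.70). Whether these shifts had a part in the Npc2 values was not tested.

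**Figure D4:**
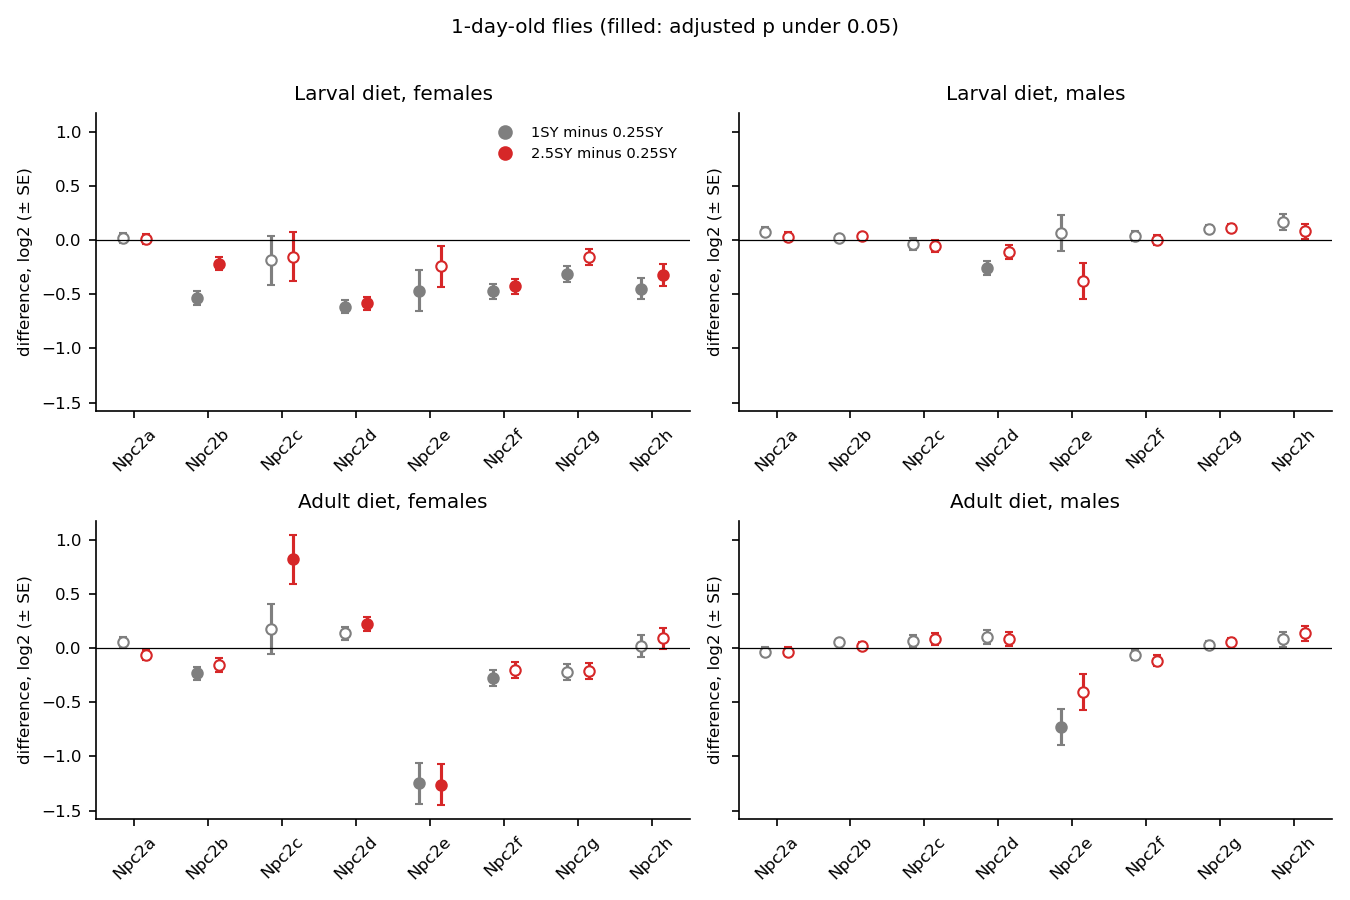
Differences in log2 value of the Npc2 genes in 1-day-old flies for larval and adult diet, 1SY and 2.5SY each against 0.25SY, with bars of 1 standard error and filled points where the adjusted p was under 0.05. In females 6 of 8 members were called lower after 1SY larval food and 4 of 8 after 2.5SY, while on adult diet Npc2e had the largest falls, by 1.25 and 1.26.

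At the later ages larval diet left no call. The F-test passed for 0 of 8 members in females (0.0639% of all probe sets passed) and for 0 of 8 in males (0.272%). The largest values were those of Npc2e and Npc2d in males: Npc2e averaged 9.18 ± 2.14, 10.06 ± 1.78 and 9.89 ± 1.68 and Npc2d 10.37 ± 0.85, 9.88 ± 1.01 and 9.94 ± 0.89 after 0.25SY, 1SY and 2.5SY (SD, n = 24 each). The difference of 1SY from 0.25SY was 0.88 for Npc2e (SE 0.319, adjusted p = 0.180, 95% interval 0.25 to 1.5, rank 13) and -0.49 for Npc2d (SE 0.157, adjusted p = 0.112, 95% interval -0.80 to -0.18). Larval diet accounted for at most 12.6% of the variance of any member at these ages (Npc2c in females). No member passed for larval diet by age (0% of all probe sets in females and 0.00533% in males) or for larval by adult diet (3.6% and 0.0213%), where Npc2e in females came closest (adjusted p = 0.0623).

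The neighbours Npc2d and Npc2e ran opposite to each other. Over the 27 group means of each sex, r was -0.796 in females and -0.690 in males, while over single arrays around their group means it was -0.147 and -0.479 (108 arrays each). The neighbours Npc2g and Npc2h ran together, with r of 0.644 in females and 0.780 in males over single arrays (0.830 in males without the 3 old male arrays) and 0.701 and 0.341 over group means. Some members that are not neighbours also ran opposite over group means. In females and males r was -0.800 and -0.872 for Npc2a and Npc2d and -0.481 and -0.873 for Npc2e and Npc2h. For Npc2b and Npc2d it was -0.0633 and -0.808. Values on 1 array share its RNA and its normalization, and group means share the effects of age and diet, so these r are descriptions.

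**Figure D5:**
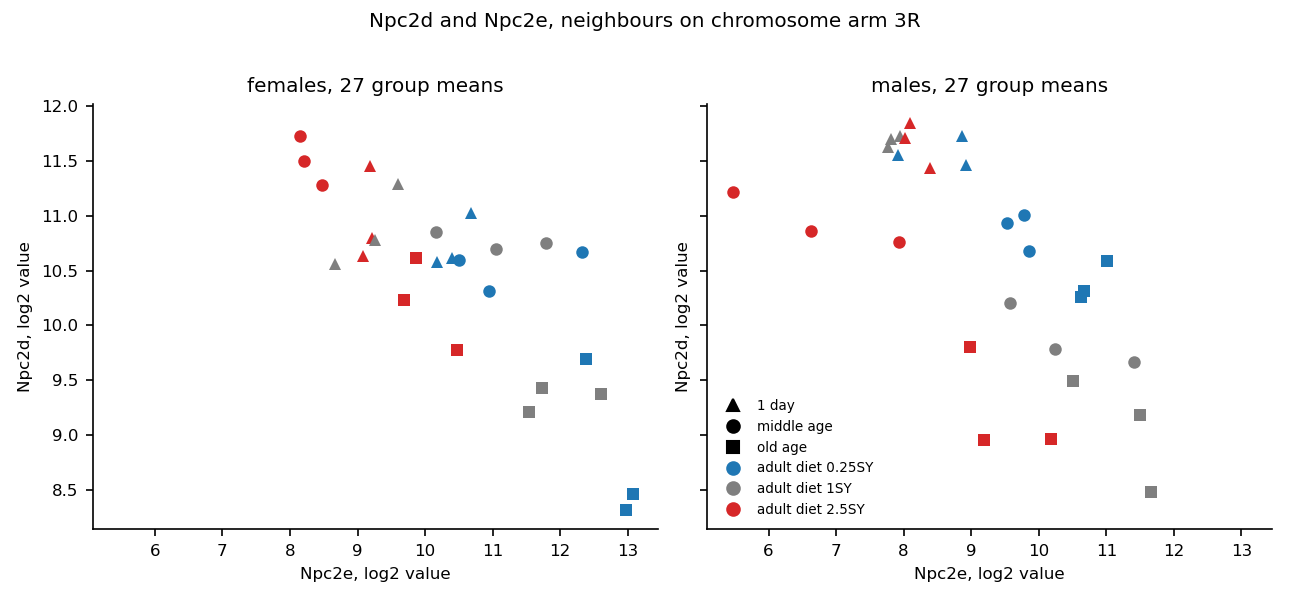
Group means of Npc2d against Npc2e in log2 values, with 27 groups per sex marked by age and adult diet and females left of males. Groups with high Npc2e tend to have low Npc2d, with r = -0.796 in females and -0.690 in males.

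By pattern over the same 27 group means, averaged over the sexes, the genes most like Npc2d were CG12057 (r = 0.952), the trypsin gene zetaTry (0.939) and CG1946 (0.939). Those most like Npc2a were CG13117 (0.935), CG8046 (0.898) and the transcription factor gene Ets21C (0.892), and those most like Npc2b were Msr-110 (0.925), Tsp42Eg (0.920) and wat (0.917). Npc2g was closest to CG30431 (0.874), GstE12 (0.870) and CG16926 (0.862), and Npc2e to CG7381 (0.838), CG7953 (0.832) and CG4734 (0.774). Npc2f, Npc2h and Npc2c had no gene above 0.803 (CG33966), 0.768 (MsrA) and 0.767 (CG15308).

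Genes of the wider pathway were set beside the family from lists chosen by name. Npc1a, the partner of NPC2 proteins in the lysosome, was not called between old and middle age (0.01 in both sexes; adjusted p = 0.870 in females and 0.814 in males) and fell in 1-day-old females raised on 1SY (-0.26, adjusted p = 7.76e-07) and 2.5SY (-0.15, adjusted p = 0.00282) against 0.25SY. On adult diet at 1 day it was at -0.09 and -0.08 in females (adjusted p = 0.136 and 0.259). Npc1b, the midgut paralogue, was not measured alone.

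Of 12 measured sterol and lipid carriers, receptors and ester hydrolases, old females had 4 higher and 5 lower (24.2% and 21.1% of all probe sets were) and old males 3 higher and 5 lower (22.7% and 18.5%). The scavenger receptor gene ninaD, which serves carotenoid uptake, fell by 1.67 in old females (adjusted p = 1.14e-10) and by 2.11 in old males (adjusted p = 8.14e-11), and mag, which encodes a lipase with a role in sterol balance, fell by 1.48 (adjusted p = 6.25e-14) and 1.26 (adjusted p = 2.62e-11). The lipase gene Lip3 rose by 1.36 in old females (adjusted p = 6.18e-12) and fell by 0.69 in old males (adjusted p = 0.00389). At middle age, against 1 day, 7 were higher and 3 lower in females (25.7% and 35% of all probe sets were), while 10 were higher and 2 lower in males (38.6% and 35.5%). In 1-day-old females 7 fell and 2 rose on either richer larval diet (19.5% of all probe sets fell and 23.3% rose after 1SY, 13.7% and 15.3% after 2.5SY), with LpR2 at -0.54, mag at -0.54 and ninaD at -0.51 after 1SY; the median was -0.36, against -0.46 for the Npc2 members and 0.02 for all probe sets. On adult diet at 1 day 4 fell on 1SY and 3 on 2.5SY (4.97% and 3.73% of all probe sets did) and none rose in females, led by ninaD at -0.59 on 1SY (adjusted p = 0.000536).

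Of 9 measured ecdysteroid synthesis and turnover genes, 2 rose and 5 fell in old females and 2 rose and 1 fell in old males, against 24.2% of all probe sets that rose and 21.1% that fell in old females and 22.7% and 18.5% in old males, as for the next lists too. Of 7 measured steroid and sterol responsive nuclear receptor genes, 3 rose and 2 fell in old females and 3 rose and 1 fell in old males. Of 8 measured peptidoglycan receptor and Imd pathway genes, 6 rose and 1 fell in old females and 7 rose and 0 fell in old males, with PGRP-LF, an inhibitor of the pathway, at 0.51 and 0.68 and its transcription factor Rel at 0.43 and 0.55. Between middle age and 1 day 6 rose in females (25.7% of all probe sets did) and all 8 in males (38.6%). No gene of these 3 lists fell on adult diet at 1 day in females, and 1 ecdysteroid gene (sro) rose on 2.5SY (0.89% of all probe sets did). The larval diet called 0 genes of all 5 lists at the later ages.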

How the data were processed

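Each array held RNA of 5 whole flies on an Affymetrix Drosophila Genome 2.0 array. The authors deposited log2 expression values for 18952 probe sets in 216 arrays, made by RMA (named without a version in the submitters' notes): background correction, quantile normalization and summary of probes, which pulls arrays towards 1 distribution. The methods speak of normalizing the sexes separately after leaving out some arrays, whereas the deposited table holds all 216 arrays; whether its values were normalized per sex is not given in the sources used here. The number of arrays limits the precision.

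The 183 control probe sets were left out, and 18769 were tested with limma 3.58.1 in R 4.3.3: 1 mean per group, contrasts of marginal means, moderated tests and Benjamini-Hochberg adjustment over all 18769 at 0.05. Fits covered the later ages per sex (72 arrays), middle age and 1 day per sex (72), both sexes per age (72), 1 day per sex (36) and both sexes for sex by age (144). Probe sets were named through the platform annotation, with symbols updated by Entrez identifier, and 13647 had 1 gene. All 8 members were described; genes of like pattern were the 3 with the highest mean over the sexes of r over 27 group means; up to 3 genes per list were named, those of largest difference. A list's level is the mean log2 value over its genes, with 1 probe set per gene, the brightest. Members and lists were chosen with earlier results of these data known. Ranks order all probe sets by absolute difference.

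Alternatives were array quality weights, dim probe sets left out (mean log2 under 5), repeated quantile normalization, median centring, ordinary ANOVA, calls only where no interaction passed, all ages in 1 fit, blocks by replicate number or by the provider's sample number, each replicate left out, the 3 old male arrays left out and, added after seeing the data, the 3 middle-aged arrays left out. The scripts were tested on simulated data.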

Additional observations from a re-analysis of the deposited data

Results flagged for a closer look

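Of 432 sets of 4 arrays (8 members in 54 groups), 36 held an array far from the others by Dixon's criterion (8.33%), where chance gives about 1 in 20. The 3 named here were chosen after their values were seen. Npc2c read 8.43 in replicate 4 of 1-day-old females raised on 0.25SY and kept on 2.5SY, where the other 3 read 5.83, 5.80 and 5.61. Npc2e read 5.93 in replicate 4 of middle-aged males raised on 0.25SY and kept on 1SY, where the others read 11.21, 10.47 and 10.68. Npc2h read 10.76 in replicate 1 of middle-aged males on 2.5SY at both stages, where the others read 11.84, 12.05 and 12.06. The arrays behind the values of Npc2e and Npc2h are the middle-aged males set apart above by their adult diet.

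The change between old and middle age differed between females and males, by a test of the difference, for Npc2b (-0.27) and Npc2d (-0.46). These were 2 of 8 members, near the 25.8% of all probe sets. Npc2d was not called without the 3 old male arrays (adjusted p = 0.0930), with centred arrays (0.0815) or without replicate 1, 2 or 3. The change between middle age and 1 day differed for Npc2a (-0.12), Npc2d (1.15), Npc2f (0.68), Npc2g (0.76) and Npc2h (0.59). These were 5 of 8, near the 56.5% of all probe sets, and Npc2a was lost without replicate 4 (adjusted p = 0.0548). In females the difference between adult diets changed with age for Npc2a (0.25, 2.5SY from 1SY) and Npc2f (-0.93, 2.5SY from 0.25SY). These were 2 of 8, near the 27% of all probe sets, and the F-test of Npc2a was not passed with any 1 replicate number left out.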

How the results depend on the processing

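Of 1657 values of single members under the alternatives, 1558 were classed as unchanged, 58 lost the call, 22 gained it and 19 turned sign. Unchanged meant the same direction and side of the threshold. For adult diet at the later ages it meant only a shift smaller than the within-group SD. The tally covers age and sex contrasts and diet differences called in some setting. It leaves out 131 differences called in no setting, with 1599 values, of which 73 were recorded with the sign turned. Counts of members called moved as follows. With all 3 ages in 1 fit, larval diet at the later ages called 1 member in males (Npc2d, adjusted p = 0.0336). With blocks of the provider's numbers, 0 members were called in 1-day-old males for larval diet (Npc2d 0.280) or adult diet (Npc2e 0.333) and 1 for adult diet by age in females (Npc2a 0.291); ordinary ANOVA also called 0 for adult diet in 1-day-old males (Npc2e 0.0596). Larval by adult diet called 1 member in females (Npc2e) without dim probe sets (0.0470) or with quality weights (0.0194). Adult diet by age in males called 2 with quality weights (Npc2d 0.00402, Npc2e 0.0344), 1 without the 3 old male arrays and 2 without the 3 middle-aged arrays. Sex by age (old against middle) called 1 with centred arrays (Npc2d 0.0815) or without the 3 old male arrays. With each replicate left out, the counts ranged from 1 to 3 for adult diet by age in females, were 1 for adult diet in 1-day-old females, 0 to 1 in 1-day-old males for adult and for larval diet, 0 to 1 for larval by adult diet in females, 3 to 5 for larval diet in 1-day-old females and 1 to 2 for sex by age (old against middle).

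Among the 1657 values signs turned for those below, and the cause was not tested. Npc2a (middle age against 1 day, females) was -0.027 with repeated quantile normalization and -0.035 with centring. For females against males, centring gave 0.23 and 0.19 for Npc2f and 0.16 and 0.060 for Npc2g at middle and old age and 0.45 for Npc2d at old age, where quality weights gave 0.00064 and leaving out the 3 old male arrays 0.0018. Sex by age (old against middle) of Npc2e was 0.015 with quality weights. With each replicate left out, the values between middle age and 1 day in females ranged from -0.0075 to 0.018 for Npc2a, -0.25 to 0.023 for Npc2c and -0.012 to 0.19 for Npc2d, and Npc2a ranged from -0.018 to 0.058 for larval diet in 1-day-old females (1SY against 0.25SY). Sex by age of Npc2e ranged from -0.36 to 0.15 for old against middle age and from -0.49 to 0.22 for middle age against 1 day, where Npc2c ranged from -0.18 to 0.074.

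The replicate number did not pair arrays: 18 of 72 females and 14 of 72 males of the later ages were closest to their own number. As a block it left all 133 single differences of the tally classed as unchanged. This block gave 3 members for adult diet by age in females. Among the 4 called for adult diet in 1-day-old females, it exchanged Npc2b (0.0640) for Npc2d (0.0428).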
